A study of Rattus norvegicus with 12 samples.

Results

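The ubiquitin and proteasome genes of rat fibroblasts described here are 37 genes, represented by 39 probes, of the 1710 genes (1734 probes) that carry a name in the authors' deposited tables of probes changed by rapamycin. They were taken by annotation: a definition holding the words ubiquitin, proteasome, F-box or cullin, or a symbol beginning with Psm, Ube2, Usp or Fbx, with Ube2c left out and the probe of highest mean signal kept for a gene with several. Of the 37 genes, 19 were listed by the authors for TGR-1 cells, 12 for HO15.19 cells and 6 for both, so rapamycin had already chosen them on these same arrays and counts of rapamycin changes among them are a description. The lists compared treatments and not lines, but the contrasts of the lines use the same arrays, so they are not independent of the choice. A gene listed for TGR-1 cells and lower there with rapamycin tends to have high TGR-1 controls, which favours a lower HO15.19 value with DMSO. A listed gene that is higher there with rapamycin tends to have low TGR-1 controls, which favours a higher one. Low treated TGR-1 arrays likewise favour a higher HO15.19 value with rapamycin, and high ones a lower value. A gene listed for HO15.19 cells and lower there tends to have high HO15.19 controls and low treated arrays. That works against a lower HO15.19 value with DMSO and favours such a value with rapamycin. For a listed gene that is higher there the reverse holds. The TGR-1 line is an hprt− subclone of Rat-1, an immortalized embryonic rat fibroblast, and is c-myc+/+. The HO15.19 line is c-myc−/− and was derived from TGR-1 by homologous recombination, and as each genotype is represented by 1 line, genotype and line cannot be told apart. Their labelled doubling times also differ, 18 to 21.5 hr for TGR-1 and 45 to 60 hr for HO15.19. Both lines received DMSO vehicle (control) or 50 nM rapamycin, an inhibitor of mTOR complex 1, for 24 hr, and total RNA of 3 independent biological replicates in each of the 4 groups was measured on 12 Illumina RatRef-12 arrays. The study asked whether the response to rapamycin depends on c-Myc.

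Ubiquitin is attached to target proteins by a relay of E1, E2 and E3 enzymes and removed by deubiquitinases, and chains of it mark a protein for the proteasome. The proteasome has a 20S core with the proteolytic sites, opened by caps: the 19S particle, which holds ATPases and recognizes ubiquitin, the 11S particle (PA28) and PA200. In cells of the immune response, and after interferon, alternative catalytic subunits replace the constitutive ones to form the immunoproteasome. The SCF ligases pair a cullin scaffold, activated by the ubiquitin-like protein NEDD8, with an F-box protein that selects the substrate. In growing cells mTOR complex 1 is known to influence protein degradation as well as protein synthesis.

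Promoter windows are shown for the member with the largest rapamycin change, for the member whose fall passed in TGR-1 cells, and for proteasome genes of both kinds described below, 1 constitutive (Psmb5) and 3 inducible (Psmb8, Psmb10 and Psme2) proteasome genes. Each is the 250 bases before the gene's start in RefSeq (rat build GRCr8), 5′ to 3′ on the gene's strand, and the capitals mark matches to the motifs named after them.
Fbxl20 (chr10:83639122-83639371, minus strand): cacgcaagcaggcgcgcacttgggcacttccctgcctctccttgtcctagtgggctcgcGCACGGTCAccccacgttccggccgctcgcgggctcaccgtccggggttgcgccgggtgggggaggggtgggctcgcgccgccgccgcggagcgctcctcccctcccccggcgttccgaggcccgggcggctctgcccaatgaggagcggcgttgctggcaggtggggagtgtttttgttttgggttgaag
Psmc5 (chr10:91687303-91687552, plus strand): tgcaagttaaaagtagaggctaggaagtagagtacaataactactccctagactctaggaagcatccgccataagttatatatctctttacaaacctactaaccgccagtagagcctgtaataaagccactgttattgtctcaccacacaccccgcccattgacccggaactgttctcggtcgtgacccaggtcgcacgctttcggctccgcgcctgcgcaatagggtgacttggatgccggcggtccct
Psmb5 (chr15:32047380-32047629, minus strand): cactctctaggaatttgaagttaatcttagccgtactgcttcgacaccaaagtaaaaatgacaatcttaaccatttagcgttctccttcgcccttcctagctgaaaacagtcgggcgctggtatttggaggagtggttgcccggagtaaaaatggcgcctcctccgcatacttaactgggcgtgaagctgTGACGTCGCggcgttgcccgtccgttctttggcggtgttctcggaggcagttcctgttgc
Psmb8 (chr20:4657032-4657281, minus strand): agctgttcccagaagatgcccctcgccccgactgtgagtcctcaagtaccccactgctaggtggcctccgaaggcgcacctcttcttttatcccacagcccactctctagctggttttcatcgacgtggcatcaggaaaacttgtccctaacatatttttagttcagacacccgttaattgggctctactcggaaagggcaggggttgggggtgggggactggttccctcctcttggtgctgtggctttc
Psmb10 (chr19:50743293-50743542, minus strand): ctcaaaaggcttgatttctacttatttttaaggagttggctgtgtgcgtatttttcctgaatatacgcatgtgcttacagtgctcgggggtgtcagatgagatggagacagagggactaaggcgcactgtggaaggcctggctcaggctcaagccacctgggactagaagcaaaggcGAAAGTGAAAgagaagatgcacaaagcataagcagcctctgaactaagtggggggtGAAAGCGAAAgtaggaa
Psme2 (chr15:33052752-33053001, minus strand): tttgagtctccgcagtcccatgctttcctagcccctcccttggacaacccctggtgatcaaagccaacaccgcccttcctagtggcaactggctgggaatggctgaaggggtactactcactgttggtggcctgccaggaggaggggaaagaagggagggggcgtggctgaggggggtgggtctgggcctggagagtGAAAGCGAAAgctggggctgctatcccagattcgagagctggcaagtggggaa
Both strands of these windows were searched for 3 motifs, and 35 of the 37 members had a window. The interferon-stimulated response element core, GAAA followed by any 2 bases and a second GAAA, bound by interferon regulatory factors, was present in 3.41% of all 33469 rat windows and in 3 members, with 2 matches before Psmb10, 1 before Psme2 and 1 before Psma4. The core of the antioxidant response element, TGACNNNGC, which is bound by NRF factors, was in 10.1% of all windows and in 8 members (Dcun1d5, Fbxl20, Psmb5, Psmb6, Psme4, Ube2s, Uchl5 and Wwp2). The E-box CACGTG, the site of Myc and related factors, was in 5.59% of all windows and in 3 members (Psma4, Psmc1 and Wwp2). The windows of Psmb8 and Psmc5 held none of these letters. These matches describe the sequences only.

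Mean raw signal per array ranged from 334 to 370 in TGR-1 cells and from 255 to 405 in HO15.19 cells, and 9605 to 10472 of the 22523 probes were detected per array. Arrays of a group correlated at 0.989 or above. The Myc probe was lower in HO15.19 than in TGR-1 cells by 1.19 on the log2 scale with DMSO (standard error 0.12, adjusted p = 5.67e-07) but was detected on all 12 arrays, and the sources used here do not say whether it lies in the deleted segment. Among 4 named fibroblast markers, Col1a1, Col3a1 and Fn1 were detected on all 12 arrays, and Lum on the 6 HO15.19 arrays but on none of the 6 TGR-1 arrays. Markers of other cell types were not named in the tables and were not examined. Below, signal means the background-corrected, quantile-normalized log2 signal of a probe, which is not comparable between probes. To pass, a change needed an adjusted p (Benjamini-Hochberg, over the 10852 probes tested) below 0.05, a p before adjustment of no more than 0.01 and a size of 1.2-fold or more, with limma fitted over all 12 arrays. Because RNA of whole cultures was measured, fewer cells expressing a gene and less RNA per cell cannot be told apart.

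All 37 members were among the tested probes, and 36 were detected on all 12 arrays. Rapamycin raised Fbxl20 and Nub1 in both lines and Fbxo6 in TGR-1 cells, and lowered the proteasome ATPase Psmc5 in TGR-1 cells and the immunoproteasome subunit Psmb8 in HO15.19 cells. With 4 of 37 members in TGR-1 cells (3 higher, 1 lower), where 3.96% of all tested probes passed (2.52% higher, 1.45% lower), and 3 of 37 in HO15.19 cells (2 higher, 1 lower), where 5.14% passed (2.51% higher, 2.64% lower), most members listed by the authors did not pass here, and nothing is read from these shares because rapamycin chose the members. On the authors' own normalized values the same fit and threshold gave 12 of 37 in TGR-1 cells (6 higher, 6 lower) and 11 in HO15.19 cells (3 higher, 8 lower). The methods' t-test gave 1 and 0, but it was run on the values normalized here and not on those of the authors. By role, the F-box genes had positive values in TGR-1 cells (6 of 6) and mostly in HO15.19 cells (5 of 6). Those of the constitutive proteasome, counted with PA200 and the assembly chaperone Psmd5, had negative ones (12 of 12 and 10 of 12). Between the lines, 19 of 37 members passed with DMSO (9 higher and 10 lower in HO15.19), where 31.4% of all tested probes did (15.7% in each direction), and 13 of 37 with rapamycin (6 higher, 7 lower), where 31.3% did (15.3% higher, 16.1% lower). With arrays centred on the median of the tested probes in place of quantile normalization, the DMSO count was 20 (6 higher, 14 lower). Of the 10 lower with DMSO, 7 (Cul5, Dcun1d5, Psmc5, Psmd13, Psmd6, Ube4b and Usp10) were listed for TGR-1 cells only and had negative rapamycin values there. These 7 did not pass between the lines with rapamycin, so nothing is read from the DMSO share. Of the 7 lower with rapamycin, 4 (Ube2s, Ubfd1, Uchl5 and Usp1) were listed for HO15.19 cells only and had negative rapamycin values there. Of the 6 higher, Fbxo4, Fbxo8 and Wwp2 were listed for HO15.19 cells with positive values. LOC360990 was listed for TGR-1 cells with a negative one. The listing favours these calls through the treated arrays, so nothing is read from the rapamycin share either. Of all 39 calls named here, 26 were lost by the methods' t-test and 18 with arrays centred on the median of all probes.

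Fbxl20, an F-box substrate receptor known in mouse neurons for acting on the synaptic protein RIM1, had the largest rapamycin change of the group. Its signal was 6.77, 6.63 and 6.71 on the TGR-1 DMSO arrays and 7.79, 7.95 and 7.88 on the TGR-1 rapamycin arrays. In HO15.19 cells it was 7.34, 7.49 and 7.13 with DMSO and 8.27, 8.14 and 8.16 with rapamycin. The 4 groups did not overlap and stood in the order TGR-1 control, HO15.19 control, TGR-1 rapamycin and HO15.19 rapamycin. Rapamycin raised it by 1.17 (standard error 0.11, adjusted p = 2.2e-05) in TGR-1 cells, a 2.25-fold rise, and by 0.87 (standard error 0.11, adjusted p = 0.000234) in HO15.19 cells, a 1.83-fold rise. With DMSO it was higher in HO15.19 cells than in TGR-1 cells by 0.62 (standard error 0.11, adjusted p = 0.000402), or by 0.40 without background correction. With rapamycin the lines differed by 0.32 (standard error 0.11, adjusted p = 0.0387), which missed the limit on the unadjusted p (0.0127). The difference between the rapamycin changes of the lines was −0.30 (standard error 0.16, adjusted p = 0.57) and did not pass.

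**Figure D1:**
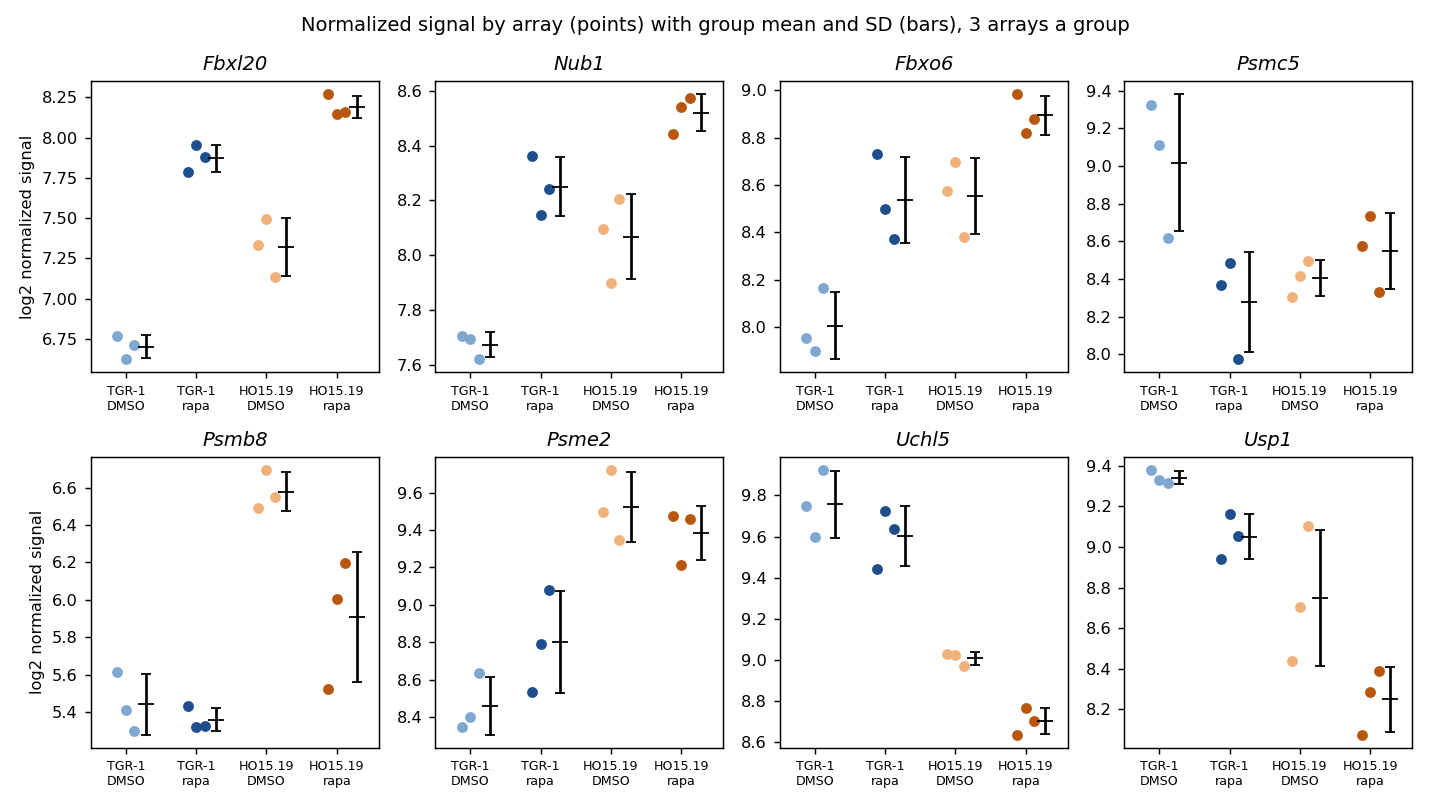
Normalized log2 signal of 8 members in the 4 groups, with a point for each of the 3 arrays of a group and bars for the group mean and SD. Fbxl20, Nub1 and Fbxo6 are higher on every rapamycin array than on any DMSO array of the same line, Psmb8 and Psme2 are higher in HO15.19 cells, and Uchl5 and Usp1 are lower there.

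The other F-box genes had positive rapamycin values in TGR-1 cells, so that all 6 were positive (median 0.42, against −0.0025 over all tested probes), and 2 passed. In HO15.19 cells 5 of 6 were positive (median 0.37, against −0.0045) and 1 passed. Fbxo6, listed as Fbxo6b, binds glycoproteins that are retrieved from the endoplasmic reticulum for degradation. Its signal was 7.95, 7.90 and 8.17 in TGR-1 controls and 8.73, 8.50 and 8.37 with rapamycin, and 8.58, 8.70 and 8.38 in HO15.19 controls and 8.98, 8.82 and 8.88 with rapamycin. In each line the treated arrays were all above the controls, and the treated TGR-1 arrays overlapped the untreated HO15.19 arrays. The rise was 0.53 (standard error 0.13, adjusted p = 0.0245) in TGR-1 cells and the value in HO15.19 cells was 0.34 (standard error 0.13, adjusted p = 0.135), which did not pass. The TGR-1 call was lost without TGR-1 control replicate 1 or 2 (adjusted p = 0.0991 and 0.115) or TGR-1 rapamycin replicate 1 or 2 (adjusted p = 0.128 and 0.07). With DMSO, Fbxo6 was higher in HO15.19 cells by 0.55 (standard error 0.13, adjusted p = 0.00269).

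Fbxo8, an F-box protein with a Sec7 domain, read 8.05, 8.22 and 8.22 on the TGR-1 DMSO arrays and 8.34, 8.54 and 8.47 on the TGR-1 rapamycin arrays, and 8.72, 8.79 and 8.51 and then 9.25, 8.96 and 9.03 in HO15.19. Treated arrays lay above the controls of their line and HO15.19 arrays above TGR-1 arrays of the same treatment. Only the contrasts of the lines passed, at 0.51 (standard error 0.12, adjusted p = 0.00283) with DMSO and 0.63 (standard error 0.12, adjusted p = 0.0005) with rapamycin. A further Fbxo8 probe gave 0.09 (adjusted p = 0.741) and 0.34 (adjusted p = 0.148) for the same contrasts, neither of which passed. Fbxo5 (Emi1) is an inhibitor of the anaphase-promoting complex, which degrades mitotic proteins. Its signal was 8.98, 8.93 and 8.83 in TGR-1 controls, 9.20, 9.30 and 9.18 in treated TGR-1 cells, 8.46, 8.63 and 8.66 in HO15.19 controls and 8.47, 8.17 and 8.17 in treated HO15.19 cells. Treated TGR-1 arrays were the highest of the 4 groups, and every HO15.19 array was below every TGR-1 array. The rapamycin value was 0.31 (standard error 0.12, adjusted p = 0.159) in TGR-1 cells and −0.31 (standard error 0.12, adjusted p = 0.134) in HO15.19 cells, of opposite sign, and the difference between them did not pass (−0.62, adjusted p = 0.177). Between the lines it was lower in HO15.19 by 0.96 (standard error 0.12, adjusted p = 5.69e-06) with rapamycin and by 0.34 (standard error 0.12, adjusted p = 0.0312) with DMSO, and the DMSO call was lost on leaving out any of 9 arrays, with adjusted p up to 0.129 (without HO15.19 control replicate 1).

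Fbxo4, reported to act on cyclin D1, gave 6.06, 5.95 and 6.06 on the TGR-1 DMSO arrays and 6.003, 6.26 and 5.87 on the TGR-1 rapamycin arrays, and 5.94, 6.65 and 6.48 and then 6.95, 6.73 and 6.69 in HO15.19. Its treated HO15.19 arrays were the highest, and the other groups overlapped. It was higher in HO15.19 cells than in TGR-1 cells with rapamycin, by 0.74 (standard error 0.16, adjusted p = 0.00143), or 0.40 without background correction, while its rapamycin value in HO15.19 cells, 0.43 (standard error 0.16, adjusted p = 0.136), did not pass. Fbxl4, a mitochondrial F-box protein, was the member not detected on every array, being detected on 2 of 3 TGR-1 control arrays. Its groups overlapped in every comparison, and although it passed between the lines with DMSO at 0.61 (standard error 0.20, adjusted p = 0.022), that call was lost without TGR-1 control replicate 2 or 3 or HO15.19 control replicate 1 or 3 (adjusted p = 0.0552 to 0.14) and without background correction (0.25, adjusted p = 0.0503).

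The genes of the constitutive proteasome, counted here with PA200 and the 19S assembly chaperone Psmd5, were lower with rapamycin by small amounts that mostly did not pass. In TGR-1 cells all 12 members of the 20S core, the 19S cap (with Psmd5) and PA200 had negative values (median −0.34, from −0.74 to −0.07). Of all tested probes 50.5% were negative there. Psmc5 passed, 1 of the 12. An unadjusted p under 0.05 was found for 9, where 17.6% of all tested probes had one. In HO15.19 cells 10 of the 12 were negative (median −0.21), where 50.9% of all tested probes were, and 0 passed by limma. An unadjusted p under 0.05 was found for 3, where 18.6% of all tested probes had one. The methods' t-test also passed 0 of the 12, but it passed 0 of all 37 members in this line, so its 0 adds nothing. More members passed in each line on the authors' normalized values, as given above. These counts of negative values were the same under each normalization tried. Of the 12 genes 10 were listed by the authors for TGR-1 cells, which favours larger changes there but of either sign. Nothing is therefore read from the counts of small p-values. Other named probes listed for TGR-1 cells only had 288 positive and 284 negative values there. The shared sign was not tested.

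The 20S core members are the structural subunits Psma2, Psma4 and Psma6 and the catalytic subunits Psmb5, with chymotrypsin-like activity, and Psmb6, with caspase-like activity. Psma2 read 11.93, 11.82 and 11.81 on the TGR-1 DMSO arrays and 11.41, 11.60 and 11.61 on the TGR-1 rapamycin arrays, and 11.75, 11.84 and 11.68 and then 11.43, 11.44 and 11.44 in HO15.19. In each line its treated arrays all lay below its controls, and the lines overlapped. Its change was −0.31 (standard error 0.10, adjusted p = 0.114) in TGR-1 and −0.32 (standard error 0.10, adjusted p = 0.0887) in HO15.19 cells. Psma4 read 11.03, 11.04 and 10.93 on the TGR-1 DMSO arrays and 10.56, 10.67 and 10.83 on the TGR-1 rapamycin arrays, and 10.97, 10.80 and 10.62 and then 10.92, 10.45 and 10.63 in HO15.19. Psma6 read 11.97, 11.75 and 11.71 on the TGR-1 DMSO arrays and 11.55, 11.58 and 11.43 on the TGR-1 rapamycin arrays, and 11.68, 11.66 and 11.60 and then 11.53, 11.67 and 11.60 in HO15.19. For these genes the TGR-1 groups were apart and the HO15.19 groups overlapped, with TGR-1 changes of −0.31 and −0.29 (adjusted p = 0.223 and 0.163) and HO15.19 values of −0.13 and −0.04. Psmb5 was at 10.73, 10.80 and 10.50 in TGR-1 controls and 10.34, 10.42 and 10.22 with rapamycin, and at 10.56, 11.07 and 10.76 and then 10.44, 10.91 and 10.16 in HO15.19. It was lower on each treated TGR-1 array than on any TGR-1 control, and its HO15.19 arrays were widely spread. Psmb6 was at 10.99, 11.09 and 10.86 in TGR-1 controls and 10.88, 10.72 and 10.59 with rapamycin, and at 11.38, 11.04 and 11.22 and then 10.82, 10.91 and 10.88 in HO15.19. Here it was the HO15.19 groups that did not overlap and the TGR-1 groups that did. Changes in TGR-1 and HO15.19 cells were −0.35 and −0.30 for Psmb5 and −0.25 and −0.34 for Psmb6, with adjusted p from 0.113 to 0.383. Between the lines 0 of 5 passed by limma under either treatment, and 0 had an unadjusted p under 0.05, where 43.5% of all tested probes had one with DMSO and 43.2% with rapamycin.

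**Figure D2:**
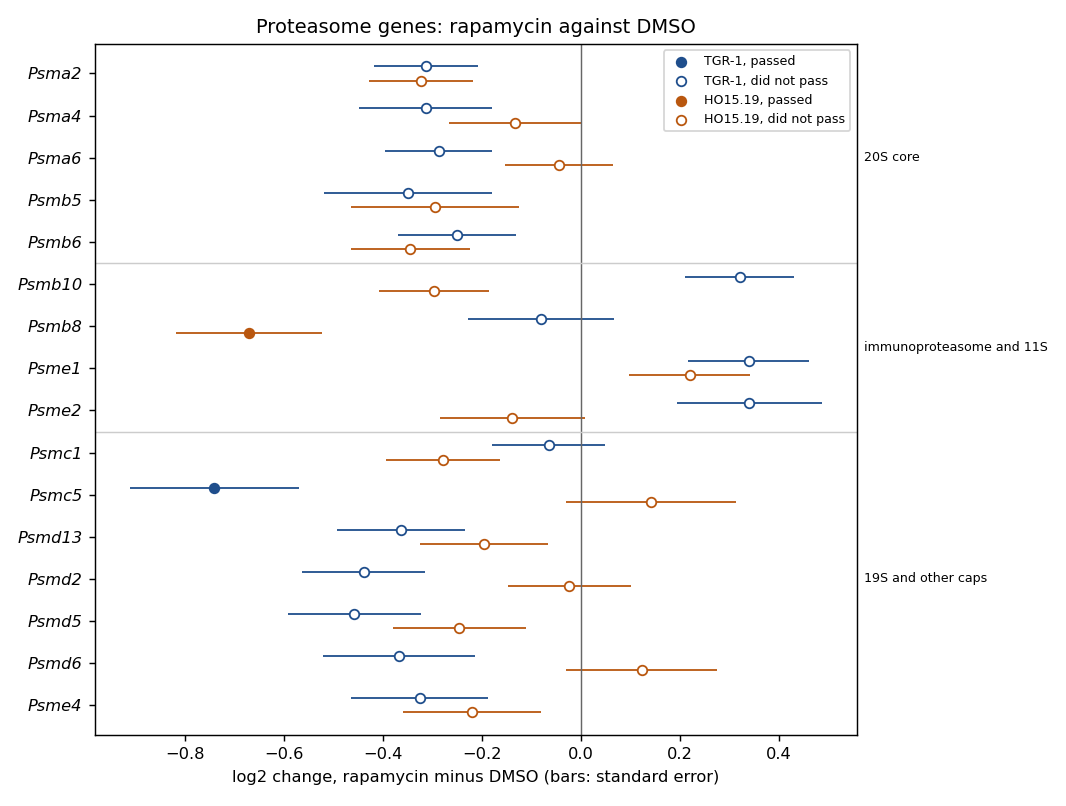
Rapamycin change (log2, horizontal axis) of the 16 proteasome members in TGR-1 and HO15.19 cells, with bars for the standard error and filled points for changes that passed. Points of the 20S core and of the 19S and other caps lie left of 0 in TGR-1 cells, and only Psmc5 in TGR-1 and Psmb8 in HO15.19 cells are filled.

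In the 19S cap, Psmc5, an ATPase of its base, fell in TGR-1 cells. Its signal was 9.33, 9.11 and 8.62 in TGR-1 controls and 8.37, 8.48 and 7.98 with rapamycin, and 8.30, 8.42 and 8.49 in HO15.19 controls and 8.57, 8.74 and 8.33 with rapamycin. The TGR-1 controls stood above all the other groups except that their lowest array lay below the highest treated HO15.19 array, and the treated HO15.19 arrays overlapped their controls. The fall was 0.74 (standard error 0.17, adjusted p = 0.0207) on the log2 scale, or 1.67-fold, and the HO15.19 value was 0.14 (standard error 0.17, adjusted p = 0.723). The call was lost without TGR-1 control replicate 1 (adjusted p = 0.116), TGR-1 control replicate 2 (0.0924) or TGR-1 rapamycin replicate 3 (0.108). With DMSO, Psmc5 was lower in HO15.19 than in TGR-1 cells by 0.61 (standard error 0.17, adjusted p = 0.01), a call lost without TGR-1 control replicate 1 (adjusted p = 0.0626) and, through its unadjusted p, without TGR-1 control replicate 2 or HO15.19 control replicate 1. The difference between its rapamycin changes was 0.88 (standard error 0.24, adjusted p = 0.206).

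Psmc1, another ATPase of the base, read 12.14, 12.13 and 12.07 on the TGR-1 DMSO arrays and 12.09, 11.95 and 12.10 on the TGR-1 rapamycin arrays, and 12.32, 12.31 and 12.56 and then 12.12, 11.96 and 12.27 in HO15.19. Its HO15.19 groups were apart and its TGR-1 groups overlapped, with changes of −0.28 and −0.07. Psmd2, the scaffold subunit that docks ubiquitin receptors, read 9.95, 10.12 and 9.99 on the TGR-1 DMSO arrays and 9.62, 9.62 and 9.50 on the TGR-1 rapamycin arrays, and 9.76, 9.75 and 9.58 and then 9.68, 9.44 and 9.91 in HO15.19. Its treated TGR-1 arrays lay below the TGR-1 controls, as did the HO15.19 controls, and the TGR-1 change of −0.44 (standard error 0.12, adjusted p = 0.0593) did not pass. Psmd5, a chaperone of 19S assembly, read 9.39, 9.34 and 9.43 on the TGR-1 DMSO arrays and 8.77, 8.87 and 9.15 on the TGR-1 rapamycin arrays, and 9.38, 9.04 and 9.30 and then 9.12, 8.76 and 9.11 in HO15.19. It was lower on every treated TGR-1 array than on any TGR-1 control, at −0.46 (standard error 0.13, adjusted p = 0.0703), and its HO15.19 groups overlapped.

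Psmd6, a subunit of the 19S lid, read 11.19, 11.17 and 10.99 on the TGR-1 DMSO arrays and 10.88, 10.83 and 10.54 on the TGR-1 rapamycin arrays, and 10.19, 10.55 and 10.89 and then 10.58, 10.78 and 10.63 in HO15.19. The TGR-1 controls were above the other 3 groups, which overlapped each other. The contrast of the lines with DMSO passed at −0.58 (standard error 0.15, adjusted p = 0.00694), though not without HO15.19 control replicate 1 (adjusted p = 0.0508), and the TGR-1 rapamycin change was −0.37 (standard error 0.15, adjusted p = 0.212). Psmd13, also of the lid, read 9.49, 10.00 and 9.68 on the TGR-1 DMSO arrays and 9.34, 9.31 and 9.43 on the TGR-1 rapamycin arrays, and 9.35, 9.21 and 9.14 and then 8.94, 9.15 and 9.02 in HO15.19. TGR-1 controls were again highest, and HO15.19 arrays lay below TGR-1 arrays of the same treatment. It was lower in HO15.19 with DMSO by 0.49 (standard error 0.13, adjusted p = 0.00692), not passing without TGR-1 control replicate 2 (adjusted p = 0.0518), and its TGR-1 rapamycin value was −0.36 (standard error 0.13, adjusted p = 0.137). Psme4 (PA200), listed under the identifier LOC498433, read 9.90, 10.13 and 10.15 on the TGR-1 DMSO arrays and 9.77, 9.66 and 9.77 on the TGR-1 rapamycin arrays, and 10.06, 9.86 and 10.25 and then 9.85, 9.57 and 10.09 in HO15.19. Only its TGR-1 groups were apart, at −0.33 (standard error 0.14, adjusted p = 0.224), and the difference between the lines with DMSO was within 0.14 (its standard error) of 0.

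The inducible proteasome genes are Psmb8 and Psmb10, catalytic subunits of the immunoproteasome, and Psme1 and Psme2, the subunits of PA28. They had 3 of 4 positive rapamycin values in TGR-1 cells (median 0.33) and 1 of 4 in HO15.19 cells (median −0.22). With DMSO all 4 were higher in HO15.19 cells than in TGR-1 cells (median 0.77, against −0.01 over all tested probes) and 3 passed, while with arrays centred on a median Psmb10 had the other sign and 3 of 4 were higher. Psmb8 read 5.61, 5.41 and 5.30 on the TGR-1 DMSO arrays and 5.43, 5.32 and 5.33 on the TGR-1 rapamycin arrays, and 6.49, 6.69 and 6.55 and then 5.52, 6.004 and 6.19 in HO15.19. HO15.19 controls were the highest group and treated HO15.19 arrays the next, with treated replicate 1 inside the range of the TGR-1 controls. It was higher in HO15.19 with DMSO by 1.14 (standard error 0.15, adjusted p = 1.43e-05), a 2.2-fold difference, and with rapamycin by 0.55 (standard error 0.15, adjusted p = 0.00802), a call lost without HO15.19 rapamycin replicate 3 (log2 0.40). Without background correction these differences were 0.54 and 0.23, and the rapamycin one missed the fold limit there (adjusted p = 0.0247) and did not pass by the methods' t-test. Rapamycin lowered Psmb8 in HO15.19 cells by 0.67 (standard error 0.15, adjusted p = 0.013), a call lost without HO15.19 control replicate 2 (adjusted p = 0.0672) or HO15.19 rapamycin replicate 1 (0.0559), and the value was −0.34 without background correction, while the TGR-1 value was −0.08 (standard error 0.15, adjusted p = 0.851).

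Psme2 read 8.35, 8.40 and 8.64 on the TGR-1 DMSO arrays and 8.53, 8.79 and 9.08 on the TGR-1 rapamycin arrays, and 9.50, 9.72 and 9.35 and then 9.48, 9.22 and 9.46 in HO15.19. Every HO15.19 array was above every TGR-1 array, and treated and untreated arrays overlapped in each line. The lines differed by 1.06 (standard error 0.15, adjusted p = 2.63e-05) with DMSO and by 0.58 (standard error 0.15, adjusted p = 0.00492) with rapamycin, and both calls were kept on leaving out any array. The call with rapamycin was lost with arrays centred on the median of all probes (0.49, adjusted p = 0.0583) and by the methods' t-test (adjusted p = 0.102). Psme1 read 10.74, 10.84 and 10.84 on the TGR-1 DMSO arrays and 11.06, 11.17 and 11.21 on the TGR-1 rapamycin arrays, and 11.49, 11.30 and 11.04 and then 11.62, 11.41 and 11.46 in HO15.19. It was higher on treated than on control TGR-1 arrays, at 0.34 (standard error 0.12, adjusted p = 0.146), and higher in HO15.19 with DMSO, at 0.47 (standard error 0.12, adjusted p = 0.00624), the latter not passing without HO15.19 control replicate 1 or with arrays centred on the median of the tested probes (0.25, adjusted p = 0.142). Psmb10 read 10.68, 10.63 and 10.79 on the TGR-1 DMSO arrays and 11.06, 10.97 and 11.04 on the TGR-1 rapamycin arrays, and 10.98, 10.86 and 10.89 and then 10.45, 10.76 and 10.62 in HO15.19. Treated TGR-1 arrays were above their controls, at 0.32 (standard error 0.11, adjusted p = 0.124), and treated HO15.19 arrays below theirs, at −0.30 (standard error 0.11, adjusted p = 0.138), with no overlap in either line, and neither value passed. A further Psmb10 probe gave 0.15 (adjusted p = 0.519) in TGR-1 cells, with overlapping groups. In HO15.19 cells that probe gave −0.37 (adjusted p = 0.0578), with groups apart. With rapamycin Psmb10 was lower in HO15.19 by 0.41 (standard error 0.11, adjusted p = 0.00764), not passing without HO15.19 rapamycin replicate 1, and the further probe gave −0.38 (adjusted p = 0.0113). The difference between the rapamycin changes of Psmb10 was −0.62 (standard error 0.16, adjusted p = 0.152).

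Among the cullin and NEDD8 genes, Nub1, which lowers the amount of NEDD8 and its conjugates by delivering them to the proteasome, rose in both lines. Its signal was 7.71, 7.69 and 7.62 in TGR-1 controls and 8.36, 8.15 and 8.24 with rapamycin, and 8.10, 7.90 and 8.21 in HO15.19 controls and 8.44, 8.54 and 8.57 with rapamycin. Treated arrays lay above the controls of each line, and treated TGR-1 arrays overlapped the HO15.19 controls. The rise was 0.58 (standard error 0.11, adjusted p = 0.00686) in TGR-1 and 0.45 (standard error 0.11, adjusted p = 0.0263) in HO15.19 cells. The HO15.19 call was lost without HO15.19 control replicate 1 or 2 or HO15.19 rapamycin replicate 2 or 3, with adjusted p from 0.0629 to 0.124. It was also lost with arrays centred on the median of the tested probes (adjusted p = 0.0788) or of all probes (0.604). The TGR-1 call was kept on leaving out any array. It was lost with arrays centred on the median of all probes (adjusted p = 0.443) and by the methods' t-test (adjusted p = 0.0695). With DMSO it was higher in HO15.19 by 0.39 (standard error 0.11, adjusted p = 0.011), not passing without TGR-1 control replicate 3 or HO15.19 control replicate 1 or 3.

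Cul5, a cullin scaffold, read 6.69, 7.10 and 7.10 on the TGR-1 DMSO arrays and 6.42, 6.44 and 6.57 on the TGR-1 rapamycin arrays, and 5.97, 6.33 and 6.60 and then 6.31, 6.26 and 6.34 in HO15.19. TGR-1 controls were above the other groups, and the HO15.19 groups overlapped. It was lower in HO15.19 with DMSO by 0.66 (standard error 0.15, adjusted p = 0.00213), or by 0.38 without background correction, and its rapamycin value was −0.49 (standard error 0.15, adjusted p = 0.0795) in TGR-1 and 0.00 in HO15.19 cells. Dcun1d5, which promotes the attachment of NEDD8 to cullins, was lower in HO15.19 with DMSO by 0.44 (standard error 0.11, adjusted p = 0.00624), not passing without TGR-1 control replicate 1, and its TGR-1 rapamycin value was −0.38 (standard error 0.11, adjusted p = 0.0756). Uba3, the catalytic subunit of the NEDD8-activating E1 enzyme, listed as Ube1c, had values of −0.32 (standard error 0.12, adjusted p = 0.14) in TGR-1 and −0.13 in HO15.19 cells. Cul5, Dcun1d5 and Uba3 had negative TGR-1 values that did not pass.

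**Figure D3:**
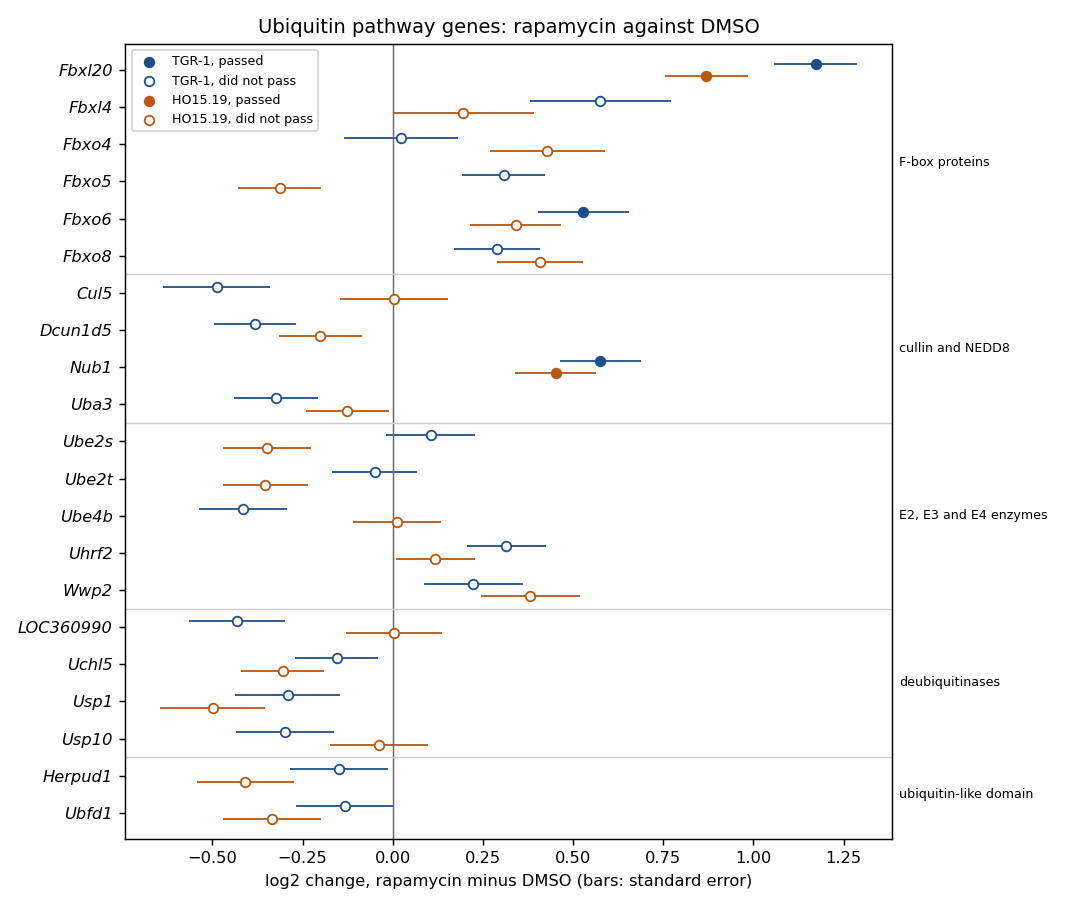
Rapamycin change (log2, horizontal axis) of the 21 members outside the proteasome in TGR-1 and HO15.19 cells, with bars for the standard error and filled points for changes that passed. Fbxl20 and Nub1 are filled in both lines and Fbxo6 in TGR-1 cells, and the 4 deubiquitinases lie left of 0 in TGR-1 cells.

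The E2, E3 and E4 enzymes had no rapamycin change that passed by limma or the methods' t-test in either line (2 of 5 and 3 of 5 had an unadjusted p under 0.05 in TGR-1 and HO15.19 cells, TGR-1 values from −0.42 to 0.31, HO15.19 values from −0.35 to 0.38). Wwp2, a ligase of the HECT class, read 6.78, 6.72 and 6.97 on the TGR-1 DMSO arrays and 7.20, 6.99 and 6.95 on the TGR-1 rapamycin arrays, and 7.28, 7.49 and 6.999 and then 7.56, 7.52 and 7.82 in HO15.19. HO15.19 arrays lay above TGR-1 arrays of the same treatment, and Wwp2 was higher there by 0.43 (standard error 0.14, adjusted p = 0.0208) with DMSO and by 0.59 (standard error 0.14, adjusted p = 0.00271) with rapamycin. The DMSO difference was 0.28 without background correction, and its call was lost without control replicate 1 or 2 of either line (adjusted p = 0.0587 to 0.116). Ube4b, which extends ubiquitin chains, read 9.65, 9.80 and 9.58 on the TGR-1 DMSO arrays and 9.34, 9.10 and 9.35 on the TGR-1 rapamycin arrays, and 9.16, 9.27 and 8.90 and then 9.06, 9.21 and 9.10 in HO15.19. TGR-1 controls were above the other 3 groups, which overlapped each other, and it was lower in HO15.19 with DMSO by 0.57 (standard error 0.12, adjusted p = 0.00164). Ube2s, an E2 of the anaphase-promoting complex, read 10.66, 10.79 and 10.88 on the TGR-1 DMSO arrays and 10.92, 10.92 and 10.81 on the TGR-1 rapamycin arrays, and 10.86, 10.78 and 10.47 and then 10.29, 10.28 and 10.50 in HO15.19. Its treated HO15.19 arrays were below the treated TGR-1 arrays, by 0.53 (standard error 0.12, adjusted p = 0.00267), and its rapamycin value in HO15.19 cells was −0.35 (standard error 0.12, adjusted p = 0.118). Ube2t, an E2 of the Fanconi anemia pathway, had −0.35 (standard error 0.12, adjusted p = 0.101) in HO15.19 and −0.05 in TGR-1 cells. Uhrf2, a RING finger protein, was lower in HO15.19 with rapamycin by 0.32 (standard error 0.11, adjusted p = 0.0319), and the call was lost on leaving out any of 10 of the 12 arrays (adjusted p up to 0.106, without HO15.19 rapamycin replicate 1).

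Of the 4 deubiquitinases, 3 passed as lower in HO15.19 than in TGR-1 cells with DMSO and 2 with rapamycin, where 15.7% and 16.1% of all tested probes did. Usp10 was listed for TGR-1 cells and Uchl5 and Usp1 for HO15.19 cells, each with a negative rapamycin value there. Such listing favours the DMSO call of Usp10 and the rapamycin calls of Uchl5 and Usp1, so nothing is read from these counts. Uchl5, which binds the 19S cap, read 9.75, 9.60 and 9.92 on the TGR-1 DMSO arrays and 9.44, 9.73 and 9.64 on the TGR-1 rapamycin arrays, and 9.03, 9.03 and 8.97 and then 8.64, 8.77 and 8.71 in HO15.19. Every HO15.19 array was below every TGR-1 array, by 0.75 (standard error 0.12, adjusted p = 7.85e-05) with DMSO and 0.90 (standard error 0.12, adjusted p = 1.13e-05) with rapamycin. Usp1, which acts on FANCD2 and PCNA in DNA repair, read 9.38, 9.33 and 9.32 on the TGR-1 DMSO arrays and 8.94, 9.16 and 9.05 on the TGR-1 rapamycin arrays, and 8.44, 8.70 and 9.10 and then 8.07, 8.28 and 8.39 in HO15.19. It was lower on every HO15.19 array than on any TGR-1 array of the same treatment, by 0.59 (standard error 0.15, adjusted p = 0.00411) with DMSO and 0.80 (standard error 0.15, adjusted p = 0.000352) with rapamycin, and treated arrays lay below the controls of their line, at −0.50 (standard error 0.15, adjusted p = 0.0574) in HO15.19 and −0.29 (standard error 0.15, adjusted p = 0.315) in TGR-1 cells, neither of which passed. The 4 calls of Uchl5 and Usp1 between the lines were kept on leaving out any array, and that of Usp1 with DMSO was lost by the methods' t-test (adjusted p = 0.108). Usp10 was lower in HO15.19 with DMSO by 0.54 (standard error 0.14, adjusted p = 0.0046). LOC360990, annotated as similar to a ubiquitin specific protease, read 7.004, 7.03 and 7.26 on the TGR-1 DMSO arrays and 6.59, 6.71 and 6.70 on the TGR-1 rapamycin arrays, and 7.40, 6.96 and 7.04 and then 7.30, 7.15 and 6.96 in HO15.19. Treated TGR-1 arrays were below the other 3 groups, and with rapamycin it was higher in HO15.19 by 0.47 (standard error 0.13, adjusted p = 0.0101), or 0.30 without background correction, not passing without replicate 1 of either rapamycin group. Its TGR-1 rapamycin value was −0.43 (standard error 0.13, adjusted p = 0.0824).

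Of the members known for a ubiquitin-like domain, Herpud1, a component of degradation from the endoplasmic reticulum, had −0.41 (standard error 0.14, adjusted p = 0.0956) in HO15.19 and −0.15 in TGR-1 cells with rapamycin. Ubfd1 read 8.94, 8.83 and 8.77 on the TGR-1 DMSO arrays and 8.75, 8.67 and 8.74 on the TGR-1 rapamycin arrays, and 8.46, 8.63 and 8.56 and then 8.29, 8.48 and 7.87 in HO15.19. Treated HO15.19 arrays were below treated TGR-1 arrays, by 0.50 (standard error 0.14, adjusted p = 0.00756), a call lost without HO15.19 rapamycin replicate 3.

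**Figure D4:**
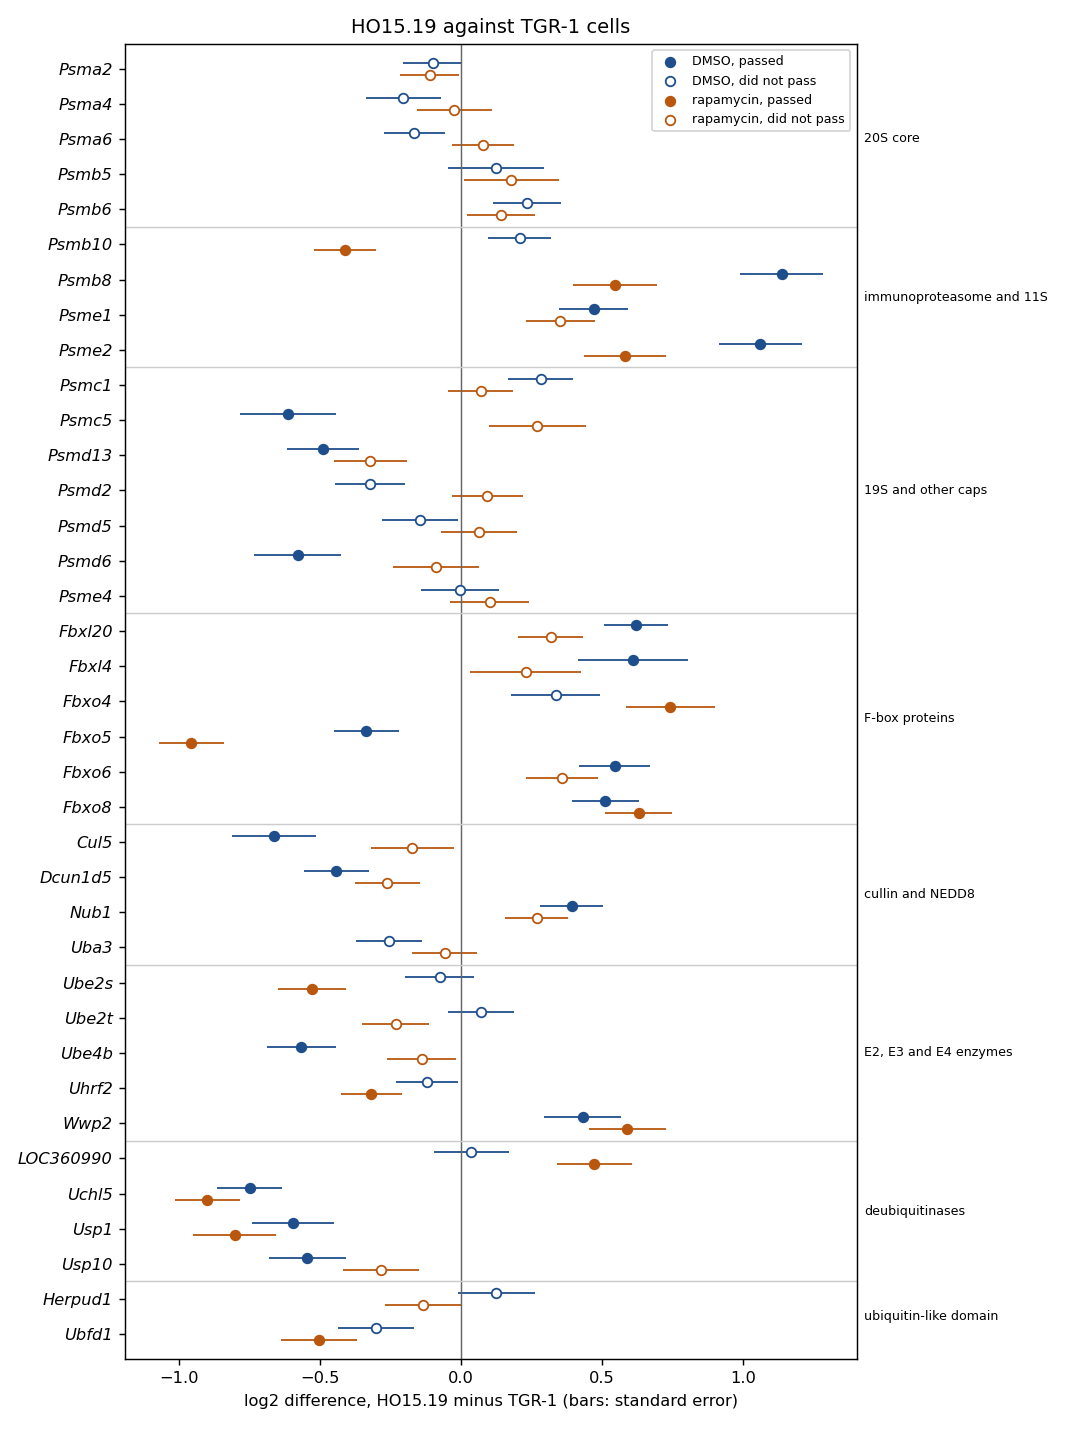
Difference between the lines (log2, HO15.19 minus TGR-1, horizontal axis) of all 37 members with DMSO and with rapamycin, with bars for the standard error and filled points for differences that passed. Psmb8, Psme2, Fbxo8 and Wwp2 are filled right of 0 and Uchl5, Usp1 and Fbxo5 left of 0 under both treatments.

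The contrast of the lines shares no array between DMSO and rapamycin. Under both treatments 4 members passed as higher in HO15.19 (Fbxo8, Psmb8, Psme2 and Wwp2), which is 44.4% of the 9 higher with DMSO and 66.7% of the 6 higher with rapamycin, and 3 passed as lower (Fbxo5, Uchl5 and Usp1), which is 30.0% of 10 and 42.9% of 7. Over all tested probes these shares were 72.6% and 74.6% for higher and 70.4% and 69.0% for lower, and the difference was not tested. By role, the inducible proteasome had 3 higher and 0 lower of 4 with DMSO, the F-box genes 4 higher and 1 lower of 6, the 19S and other caps 0 higher and 3 lower of 7, and the deubiquitinases 0 higher and 3 lower of 4, where 15.7% of all tested probes passed in each direction. Of the 9 higher with DMSO, Fbxl4, Psme1 and Psme2 were listed for TGR-1 cells and Fbxl20, Fbxo6 and Nub1 for both lines. These genes had positive TGR-1 rapamycin values, and Psmb8, listed for HO15.19 cells, had a negative one there. Through the shared control arrays the listing favours the calls of Fbxl4, Psme1, Psme2 and Psmb8. It also favours those of the lower caps and Usp10, listed for TGR-1 cells with negative values. For Fbxl20, Fbxo6 and Nub1, positive in both lines, it acts both ways. It works against the calls of Fbxo8 and Wwp2, listed for HO15.19 cells with positive values there, and of Uchl5, Usp1 and Fbxo5, negative in HO15.19 cells. As the choice of members enters in both directions, nothing is read from these counts by role. With rapamycin 0 of the 12 core and cap members passed by limma or by the methods' t-test. An unadjusted p under 0.05 was found for 1, where 43.2% of all tested probes had one. The median of the 12 was 0.07 beside −0.16 with DMSO, but −0.04 and −0.39 with arrays centred on the median of the tested probes. Since 10 of the 12 were listed for TGR-1 cells, where all 12 had negative rapamycin values, the shared TGR-1 arrays matter here. For such genes the listing favours low values with DMSO that are not seen with rapamycin. The groups of the lines were apart for 25 of 37 members with DMSO, where they were for 46.2% of all tested probes, and for 21 of 37 with rapamycin, where they were for 44.0%. The listing bears on these counts as well, so nothing is read from them.

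The difference between the rapamycin changes of the lines was tested for every member, and 0 of 37 passed by limma, where 0.111% of all tested probes did. At an unadjusted p under 0.05 there were 11 of 37, where 9.74% of all tested probes had one. The largest differences were those of Psmc5 (0.88, adjusted p = 0.206), Fbxo5 (−0.62), Psmb10 (−0.62) and Psmb8 (−0.59, adjusted p = 0.331). Listing for 1 line but not the other favours such a difference. Of the 15 members listed for TGR-1 cells only and negative there in the fit used here, 10 were also negative in HO15.19 cells (66.7%). So were 80.3% of 284 other named probes of this kind. Of the 9 listed for HO15.19 cells only and negative there, 8 were also negative in TGR-1 cells (88.9%), as were 69.4% of 412 other named probes. Of the 31 members listed for 1 line, 0 passed in the other line by limma, and 1 had an unadjusted p under 0.05 there. Over all tested probes 17.6% had one in TGR-1 and 18.6% in HO15.19 cells. Not being listed for that line favours low counts, so nothing is read from them.

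Over the 12 arrays the members whose signal followed that of Fbxl20 most closely were Nub1 (Pearson r = 0.91), Fbxo6 (0.88), Psme1 (0.81), Fbxo8 (0.79) and Wwp2 (0.74). The lowest coefficients were those of Psma2 (−0.87), Dcun1d5 (−0.85) and Uba3 (−0.82). These are descriptions over arrays that share 4 groups, without a test.

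Other genes of the pathway came from lists by name, restricted likewise to genes in the authors' tables of rapamycin changes, so their counts are descriptions beside the 2.52% of all tested probes that rose and 1.45% that fell in TGR-1 cells and the 2.51% and 2.64% in HO15.19 cells. The proteasome list had 18 named genes, of which 0 rose and 2 fell with rapamycin in TGR-1 cells and 0 rose and 1 fell in HO15.19 cells. Its non-members were Adrm1, the ubiquitin receptor of the 19S cap, which fell by 0.98 (standard error 0.22, adjusted p = 0.0163) in TGR-1 cells with −0.06 (adjusted p = 0.926) in HO15.19, and Psmg2, a chaperone of 20S assembly, which was lower in HO15.19 by 0.96 (standard error 0.14, adjusted p = 4.51e-05) with DMSO. The SCF and cullin list had 9 named genes with 2 higher and 0 lower in TGR-1 and 1 higher and 0 lower in HO15.19 cells, all of them members. Among 22 named E3 ligases of other classes and substrate adaptors of such ligases, 6 rose and 4 fell in TGR-1 cells and 4 rose and 0 fell in HO15.19 cells. Klhl24, a substrate adaptor of cullin 3, rose by 1.02 (standard error 0.12, adjusted p = 0.000145) in TGR-1 and 0.76 (standard error 0.12, adjusted p = 0.00134) in HO15.19 cells, and Klhl29 by 0.69 and 0.69. Cdc20, the activator of the anaphase-promoting complex, fell by 0.65 (standard error 0.13, adjusted p = 0.00567) in HO15.19 cells, and the TGR-1 value was −0.22 (standard error 0.13, adjusted p = 0.399). Sqstm1 (p62), a receptor that brings ubiquitinated cargo to autophagy, was 2.3-fold higher in HO15.19 with DMSO (adjusted p = 2.22e-06) and by 1.09 on the log2 scale with rapamycin (adjusted p = 5.75e-06). No gene of the ubiquitin precursor, SUMO, proteasome regulator or muscle atrophy lists was named in the tables.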

How the data were processed

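RNA of 12 samples was measured on Illumina RatRef-12 arrays. The signal intensities deposited by the authors were exported from BeadStudio without normalization, and the sources used here do not say whether background was subtracted. Detection p-values, also deposited by the authors, compare each probe with the negative controls of its array. A second deposited table holds the intensities after quantile normalization by the authors, used here as an alternative. The fold changes, group means and false discovery rates in the authors' comparison tables (Partek 6.3) were not used, and the tables served only to name probes and choose members. Of 1734 named probes, 1551 were brought to current symbols through Entrez identifiers and 2 through accessions, and 181 kept the listed name.

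In R 4.3.3 with limma 3.58.1, neqc was applied, which estimates background from detection p-values, adds an offset of 16, quantile normalizes and takes log2. The 10852 of 22523 probes detected (p under 0.05) on 3 or more arrays were tested. The fit gave each group its own mean over all 12 arrays, with eBayes moderation (two-sided, 8 residual degrees of freedom plus 8.72 from the prior), and p-values were Benjamini-Hochberg adjusted over all tested probes. The threshold (adjusted p under 0.05, unadjusted p of at most 0.01, at least 1.2-fold) takes its limits from the methods. The fit was tested on simulated data. Values by array are given for Fbxl20, for proteasome subunits, and per comparison for up to 6 rises and 6 falls that passed with groups apart. The members and lists were chosen with earlier results of these data known. Alternatives varied the filter, background correction, normalization, variance model, test, arrays in the fit, threshold, replicate block and probe, and left out each array, keeping the normalized values and tested probes. The methods' t-test was run on the values normalized here. No chip or batch is named in the sources used here, and the number of arrays limits the precision. Promoter windows are from RefSeq (GRCr8).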

Additional observations from a re-analysis of the deposited data

How the results depend on the processing

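Fbxl20 passed in TGR-1 cells and between the lines with DMSO under all 25 alternatives, and in HO15.19 cells under all but the methods' t-test. Alternatives that dropped the Benjamini-Hochberg condition, or the fold and unadjusted p conditions, only loosened the threshold. A call could not be lost under them. No called change reversed. The rapamycin counts depended on the processing. In TGR-1 cells, where 4 members passed, 12 passed without background correction (5 higher, 7 lower) and on the authors' normalized values, 9 with a trended and robust variance, 10 with array weights, 13 without the Benjamini-Hochberg condition, 1 with arrays centred on the median of all probes and 1 by the methods' t-test. In HO15.19 cells, where 3 passed, the count was 11 without background correction and on the authors' values, 7 with a trended and robust variance, 8 without the Benjamini-Hochberg condition, 5 with a stricter filter, 1 with arrays centred on all probes, 1 with only the arrays compared and 0 by the methods' t-test. Between the lines, centring on all probes gave 11 with DMSO and 8 with rapamycin, and the methods' t-test 5 and 8, in place of 19 and 13. For the difference between the rapamycin changes the count was 2 without background correction and on the authors' values, 1 with a trended and robust variance and 3 without the Benjamini-Hochberg condition, in place of 0. The causes were not tested. Leaving out each array gave 2 to 6 in TGR-1 (2 without TGR-1 control replicate 2), 1 to 4 in HO15.19 (1 without HO15.19 control replicate 2), 13 to 19 (13 without HO15.19 control replicate 1) and 10 to 16 between the lines, and 0 to 0 for the difference. Same-numbered arrays did not deviate together (correlations from −0.23 to 0.28), so the numbers were not taken as pairs, and with the replicate number as a block the counts were 6, 4, 18, 12 and 0. Over the called changes of single members, 448 of the values under other settings kept the call and 59 lost it. The kept ones include those under the loosened thresholds, where this was fixed in advance.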
